A study of Mus musculus with 10 samples.

Results

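The 9 genes described here encode proteins with which macrophages recognise and engulf apoptotic cells. These genes were chosen by name for their known roles and not by their values, though earlier results of these data were known. They are the TAM receptor kinases Mertk, Axl and Tyro3, the bridging ligands Gas6, Pros1 and Mfge8, the phosphatidylserine receptor Cd300lf, and the engulfment partners Elmo1 and Dock1. They are 9 of the 53465 genes in the count table, and 8 of them were among the 13203 genes with enough counts to be tested. RNA was sequenced in bulk from cultured peritoneal macrophages of Mac-GsαKO mice (KO, 5 libraries) and of CTR mice (5 libraries). Both genotypes were 6 to 8 weeks old, and their cells were kept in standard medium without added treatment. By its name, Mac-GsαKO lacks Gsα, the stimulatory G protein subunit encoded by Gnas, in macrophages. The sources used here do not give the promoter or Cre line behind the deletion, nor the alleles that CTR mice carry. Whether a library stands for 1 mouse is not labelled, and every SD, SE and p below therefore describes differences among libraries, which may be technical.

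Dying cells expose phosphatidylserine on their outer membrane, and macrophages bind it directly through receptors or indirectly through soluble bridging proteins. Gas6 and protein S (Pros1) bind phosphatidylserine and activate TAM kinases, and Mfge8 links it to αv integrins. These signals converge on the ELMO1-DOCK1 complex, an exchange factor for the GTPase Rac that drives the membrane around the corpse. Mertk is the TAM receptor best known from tissue-resident and peritoneal macrophages, whereas Axl is usually associated with inflammatory stimulation.

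The KO libraries held 16877249 to 19235777 counts and the CTR libraries 15664243 to 18028974. Gnas averaged 40.2 ± 2.62 CPM (counts divided by the scaled library size) in KO libraries and 435 ± 62.4 CPM in CTR libraries (SD, n = 5 each), with every KO library below every CTR library. The markers of the labelled cell type were present, with Csf1r, the receptor for the macrophage growth factor CSF1, at 1295 ± 113 CPM in KO libraries and 942 ± 89.4 CPM in CTR libraries. CTR 4 and CTR 5 stood apart, both at 34.7 on the first principal component of all tested genes (26.3% of the variance), where the KO libraries lay at -28.7 to -11.6 and the other CTR libraries at 6.85 to 18.5. CTR 4 and CTR 5 were not alike on the second component (19.5% of the variance), at 46.7 and -9.46. Fold changes and ratios without these 2 libraries are therefore given beside the results that rest on them, but correlations are not. Over all tested genes, the edgeR quasi-likelihood test called 520 genes at an adjusted p under 0.05, which is 3.94% of the genes tested (241 higher and 279 lower in KO), and the median log2 fold change was -0.01.

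Of the 8 tested clearance genes, 0 passed this test, against the background of 3.94%. An unadjusted p under 0.05 was reached by 3 of the 8 (Axl, Pros1 and Mfge8), as it was by 21.9% of all tested genes. By value, 6 of the 8 were higher in KO libraries and 2 (Gas6 and Elmo1) were lower, with a median log2 fold change of 0.16. None of the 8 had all 5 KO libraries beyond all 5 CTR libraries, a separation that 7.8% of all tested genes showed. The DESeq2 Wald test called 2 of them, Pros1 and Mfge8 (background 9.96%), voom with quality weights called 1, Mfge8 (background 14.5%), and the edgeR fit corrected for gene length and GC content called 1, Pros1 (background 4.41%). Without CTR 4 and CTR 5 the count was 0, against 8.76% of the genes then tested, and without CTR 5 alone it was 1, Mfge8, against 3.16%. In bulk RNA, fewer cells expressing a gene and less RNA per cell cannot be told apart.

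**Figure D1:**
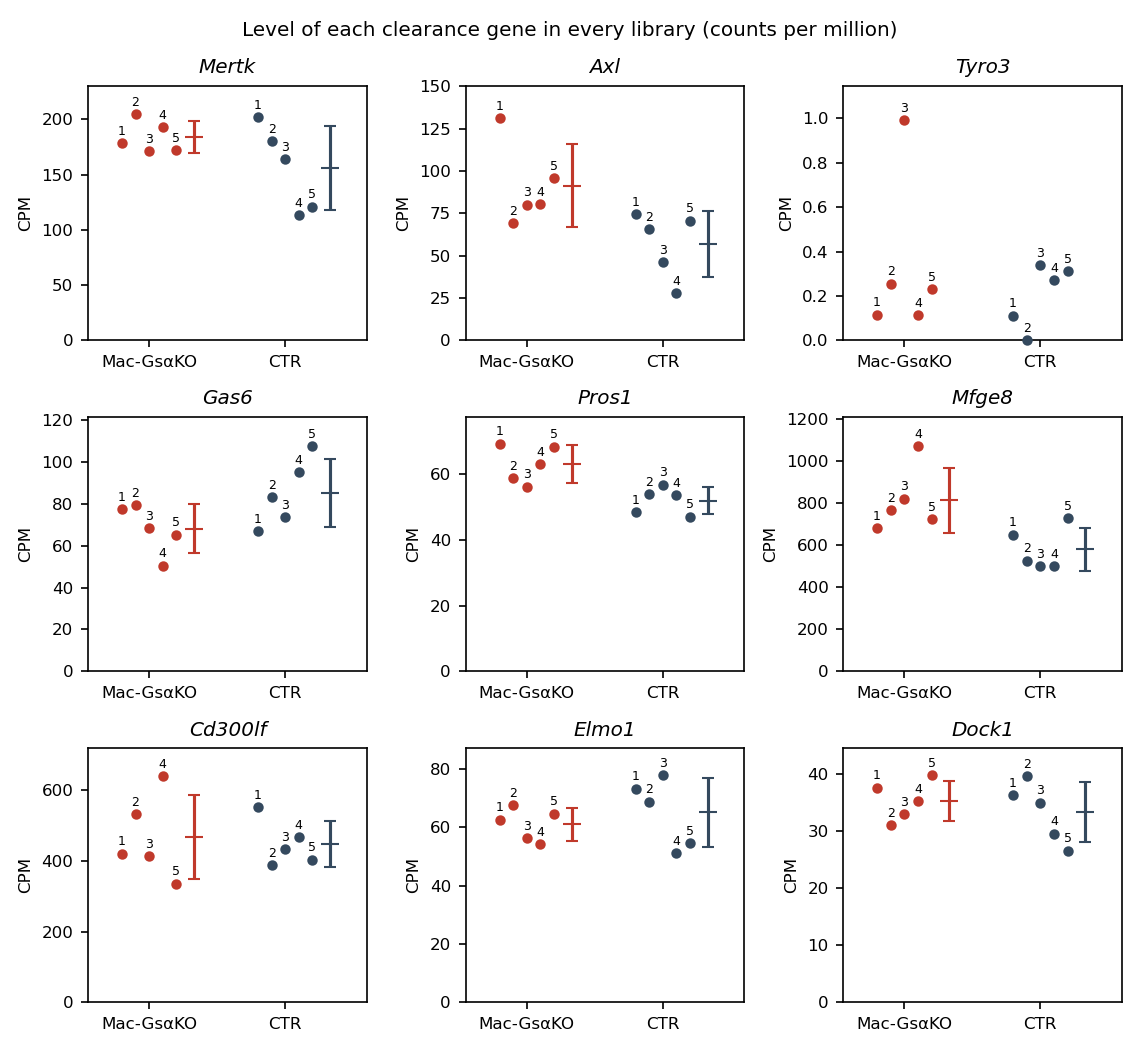
Level of each of the 9 clearance genes in CPM (vertical axes, each from 0) in the 5 Mac-GsαKO libraries (red) and the 5 CTR libraries (dark blue). Points are libraries with their replicate numbers, and bars are the mean ± SD, left out for Tyro3, which had too few counts to be tested. The groups overlap for all 9 genes, and CTR 4 and CTR 5 are the 2 lowest CTR libraries for Mertk, Elmo1 and Dock1 and the 2 highest for Gas6.

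Mertk (ENSMUSG00000014361), the TAM kinase needed for efficient corpse uptake by many macrophages, had 178, 205, 171, 193 and 172 CPM in KO 1 to 5, against 202, 180, 164, 114 and 121 CPM in CTR 1 to 5. The KO libraries lay within the range of CTR 1 to 3 or just above it, and CTR 4 and CTR 5 lay below all of them. The means were 184 ± 14.4 CPM in KO libraries and 156 ± 38.0 CPM in CTR libraries, a log2 fold change of 0.24 (SE 0.15, edgeR quasi-likelihood adjusted p = 0.385). Without CTR 4 and CTR 5 the log2 fold change was 0.02 (adjusted p = 0.928).

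Axl (ENSMUSG00000002602), the TAM kinase with the strongest preference for Gas6, had 131, 69.1, 80.0, 80.3 and 95.9 CPM in KO 1 to 5, against 74.5, 65.6, 46.3, 27.8 and 70.6 CPM in CTR 1 to 5. KO 1 was the highest library and CTR 4 the lowest, and KO 2 lay below CTR 1 and CTR 5. Its log2 fold change of 0.68 (SE 0.25, 95% confidence interval 0.14 to 1.22) was the largest among the 8 tested clearance genes, and it did not pass (adjusted p = 0.135). Across the 20 other settings tried, the adjusted p of Axl lay between 0.0632 and 0.292. Counting noise was a small part of this spread: the largest counting error of any tested member in any library was 4.93%, for Axl in CTR 4, whereas the coefficients of variation between libraries lay between 7.85% and 34.4%.

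Tyro3 (ENSMUSG00000027298), the TAM kinase most prominent in the nervous system, had 2, 5, 17, 2 and 4 counts in KO 1 to 5, against 2, 0, 6, 4 and 5 counts in CTR 1 to 5. Most of these values were near the 3 counts that a count of 0 allows (0.156 to 0.192 CPM, counting error only), and KO 3 alone exceeded 10 counts. The gene was below the filter and no fold change is given.

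On the length-corrected scale of the deposited FPKM, Mertk made up 73.9 ± 5.72% of the summed level of the 3 TAM receptors in KO libraries and 79.4 ± 5.57% in CTR libraries. Axl made up 26.04 ± 5.74% in KO libraries and 20.5 ± 5.57% in CTR libraries. Tyro3 did not exceed 0.286% in any KO library or 0.134% in any CTR library, so Mertk was the predominant TAM transcript in all 10 libraries. The ratio of Mertk to Axl CPM was 1.357, 2.963, 2.142, 2.401 and 1.796 in KO 1 to 5, against 2.708, 2.75, 3.54, 4.085 and 1.716 in CTR 1 to 5. KO 2 lay above CTR 1 and CTR 2, and CTR 5 lay among the KO libraries. The mean log2 ratio differed by -0.46 (KO minus CTR), and a two-sided exact permutation test over the libraries gave p = 0.151 (0.182 after Benjamini-Hochberg adjustment over the 3 ratios tested).

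Gas6 and Pros1 are related vitamin K-dependent proteins with the same domain order, and Gas6 activates all TAM kinases whereas protein S acts through Tyro3 and Mertk. The 3 pairs compared within libraries were chosen with earlier results of these data known. The promoter-proximal sequences of Gas6 and Pros1 are shown because only this ligand pair had a ratio that passed with all 10 libraries. Each is the 250 bases before the annotated start of the gene, 5′ to 3′ on the gene's strand, from RefSeq (GRCm38.p6), with CG dinucleotides in capitals. The Gas6 sequence lies at chr8:13494536-13494785 on the minus strand and holds 10 CG dinucleotides, and the Pros1 sequence at chr16:62854057-62854306 on the plus strand holds 15.
Gas6: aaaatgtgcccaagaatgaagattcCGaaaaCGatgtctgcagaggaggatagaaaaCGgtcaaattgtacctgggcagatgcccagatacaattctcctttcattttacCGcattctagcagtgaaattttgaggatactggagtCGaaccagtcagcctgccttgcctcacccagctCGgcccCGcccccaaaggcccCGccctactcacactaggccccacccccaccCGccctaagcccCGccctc
Pros1: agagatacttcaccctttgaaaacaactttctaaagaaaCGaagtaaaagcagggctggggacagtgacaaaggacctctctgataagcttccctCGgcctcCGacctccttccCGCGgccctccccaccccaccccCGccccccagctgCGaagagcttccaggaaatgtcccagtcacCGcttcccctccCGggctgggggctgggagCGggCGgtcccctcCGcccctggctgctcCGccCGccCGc

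All 9 genes matched RefSeq promoter windows of 300 bases (250 before the start and 50 after it), 10 windows in all because Elmo1 has 2. On either strand, 0 of the 10 held the full cAMP response element TGACGTCA, which 1.79% of all 32851 windows held. Its shorter form TGACG, which lies within the full element, stood in 0 of the 10 and in 20.8% of all windows. The nuclear receptor element AGGTCA stood in 0 of the 10 and in 16.3% of all windows. These letters are absent from these windows, and nothing about factor binding follows from that.

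Gas6 (ENSMUSG00000031451) had 77.3, 79.4, 68.3, 50.5 and 65.2 CPM in KO 1 to 5, against 67.0, 83.0, 73.8, 95.0 and 108 CPM in CTR 1 to 5. CTR 4 and CTR 5 were well above every KO library, CTR 1 and CTR 3 lay within the KO range, and CTR 2 lay just above it. The log2 fold change was -0.32 (SE 0.15, adjusted p = 0.231), and -0.13 without CTR 4 and CTR 5 (adjusted p = 0.612). The 8 fibroblast markers summed to 49.9 to 67.4 CPM in KO libraries and 30.5 to 139 CPM in CTR libraries, with the highest sum in CTR 5 and the lowest in CTR 4, and their part in the Gas6 values was not tested.

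Pros1 (ENSMUSG00000022912), which encodes protein S, had 69.1, 58.7, 56.1, 62.8 and 68.3 CPM in KO 1 to 5, against 48.3, 53.8, 56.8, 53.6 and 47.0 CPM in CTR 1 to 5. The groups overlapped only through KO 3 and CTR 3. The log2 fold change was 0.28 (SE 0.09, 95% confidence interval 0.08 to 0.48), with an adjusted p of 0.100 by edgeR. It passed by DESeq2 (adjusted p = 0.036) and with the length and GC correction (log2 fold change 0.37, adjusted p = 0.0320), and without CTR 4 and CTR 5 its edgeR value was 0.25 (adjusted p = 0.117).

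The ratio of Gas6 to Pros1 CPM was 1.118, 1.354, 1.217, 0.803 and 0.9546 in KO 1 to 5, against 1.386, 1.545, 1.299, 1.773 and 2.288 in CTR 1 to 5. KO libraries had less Gas6 per Pros1, and the groups overlapped only through KO 2, which lay above CTR 3. KO 4 and KO 5 were the only libraries with more Pros1 than Gas6 counts. Counts are not corrected for gene length (2548 bases for Gas6, 4582 for Pros1), and in FPKM Gas6 was above Pros1 in every library. The log2 ratio averaged 0.10 ± 0.30 in KO libraries and 0.70 ± 0.32 in CTR libraries (SD, n = 5 each), a difference of -0.60 with p = 0.0159 in the two-sided exact permutation test and 0.0476 after adjustment over the 3 ratios. The 3 pairs were chosen with earlier results of these data known, and the adjustment over 3 ratios does not cover that choice. The smallest p that 5 libraries against 5 allow is 0.00794. When any 1 library was left out the difference stayed between -0.68 and -0.48, and 4 libraries against 5 allow no p below 0.0159, so that a call is barely within reach after adjustment. The adjusted p was 0.0476 without KO 2 or without CTR 3, between 0.0952 and 0.119 without KO 1, KO 3, KO 4 or KO 5, and 0.0714 without CTR 1, CTR 2, CTR 4 or CTR 5. Without CTR 4 and CTR 5 the difference was -0.39 (exact p = 0.0893, 0.161 adjusted, smallest possible 0.0357).

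**Figure D2:**
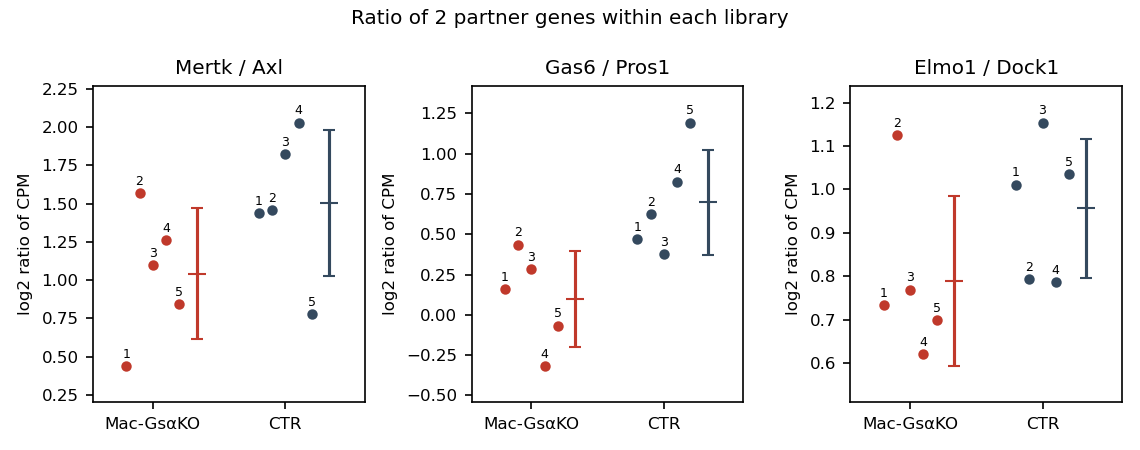
Log2 ratio of CPM of Mertk to Axl, Gas6 to Pros1 and Elmo1 to Dock1 (vertical axes, which do not start at 0) in each of the 5 Mac-GsαKO libraries (red) and 5 CTR libraries (dark blue). Points are libraries with their replicate numbers and bars are the mean ± SD. For Gas6 to Pros1 the mean is 0.10 in KO libraries and 0.70 in CTR libraries, with KO 2 above CTR 3.

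Mfge8 (ENSMUSG00000030605), the bridge from phosphatidylserine to αv integrins, had the highest mean FPKM of the 9 genes in both genotypes. It had 681, 766.5, 820.5, 1069 and 724 CPM in KO 1 to 5, against 649.5, 526, 499.5, 501 and 728 CPM in CTR 1 to 5. KO 4 was the highest library, CTR 1 lay below all KO libraries, and CTR 5 lay above KO 1 and KO 5. The means were 812 ± 153 CPM in KO libraries and 581 ± 103 CPM in CTR libraries, a log2 fold change of 0.48 (SE 0.14, 95% confidence interval 0.17 to 0.80, 1.40-fold). The edgeR adjusted p was 0.0792, so the gene did not pass. It passed by DESeq2 (adjusted p = 0.026), by voom (0.0221) and in edgeR without CTR 5 (log2 fold change 0.58, adjusted p = 0.0491), and it did not pass without both CTR 4 and CTR 5 (0.54, adjusted p = 0.0512). CTR 5 was also the library with the highest fibroblast marker sum, whose part in its Mfge8 level was not tested. The integrin chains that bind Mfge8, chosen after their values were seen, gave log2 fold changes of 0.40 for Itgav (adjusted p = 0.221), 0.23 for Itgb3 (0.739) and 0.02 for Itgb5 (0.927) by edgeR.

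Cd300lf (ENSMUSG00000047798), an immunoreceptor with inhibitory motifs that binds phosphatidylserine, had 420, 531, 412, 638 and 335 CPM in KO 1 to 5, against 552, 387, 432, 467 and 403 CPM in CTR 1 to 5. The KO libraries held both the highest value (KO 4) and the lowest (KO 5), with all CTR libraries between them. The log2 fold change was 0.06 (95% confidence interval -0.29 to 0.41, edgeR adjusted p = 0.855), and it was -0.08 without KO 4. Its relatives of the same receptor family had log2 fold changes of 0.11 for Cd300lb (adjusted p = 0.486), 0.11 for Cd300a (0.406) and 0.03 for Cd300ld (0.903) by edgeR, also chosen after their values were seen.

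Elmo1 (ENSMUSG00000041112), the scaffold of the Rac exchange factor, had 62.6, 67.7, 56.3, 54.2 and 64.8 CPM in KO 1 to 5, against 73.3, 68.9, 78.0, 51.1 and 54.6 CPM in CTR 1 to 5. CTR 1 to 3 were above every KO library and CTR 4 was below all of them. The log2 fold change was -0.09 (SE 0.13, edgeR adjusted p = 0.701), and -0.26 without CTR 4 and CTR 5 (adjusted p = 0.0949).

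Dock1 (ENSMUSG00000058325), its catalytic partner, had 37.67, 31.05, 33.02, 35.28 and 39.92 CPM in KO 1 to 5, against 36.37, 39.73, 35.04, 29.6 and 26.62 CPM in CTR 1 to 5. CTR 4 and CTR 5 were the 2 lowest libraries, while CTR 1 to 3 lay within the KO range. The log2 fold change was 0.08 (95% confidence interval -0.18 to 0.34, edgeR adjusted p = 0.732), and its sign turned to -0.06 without CTR 4 and CTR 5 and to -0.03 with voom. The ratio of Elmo1 to Dock1 lay between 1.54 and 2.18 in KO libraries and between 1.73 and 2.22 in CTR libraries. The mean log2 ratio differed by -0.17 (two-sided exact permutation p = 0.182, 0.182 adjusted over the 3 ratios). KO 2 held the highest KO ratio, and without it the difference was -0.25 with an adjusted p of 0.0476.

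**Figure D3:**
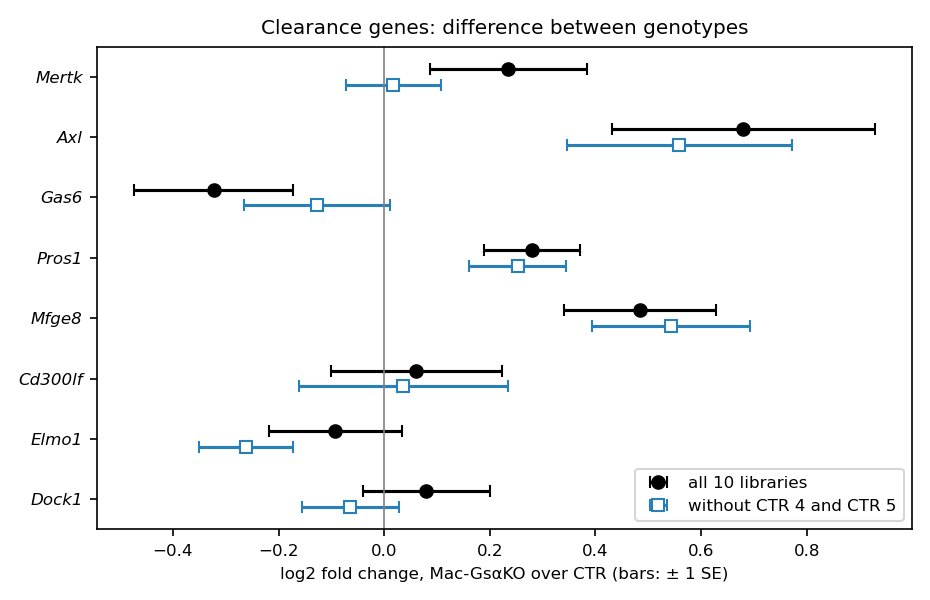
Log2 fold change, Mac-GsαKO over CTR, from the edgeR fit for the 8 tested clearance genes, with all 10 libraries (filled circles) and without CTR 4 and CTR 5 (open squares). Bars are ± 1 SE. Axl (0.68 and 0.56), Mfge8 (0.48 and 0.54) and Pros1 (0.28 and 0.25) lie to the right of 0 in both fits, while Mertk moves from 0.24 to 0.02 and Gas6 from -0.32 to -0.13 when the 2 libraries are left out.

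Compared per length, the order of the levels was led by Mfge8 at 103 ± 19.0 FPKM in KO libraries and 71.8 ± 14.8 FPKM in CTR libraries. Cd300lf came next at 69.5 ± 17.4 FPKM in KO libraries and 64.9 ± 9.06 FPKM in CTR libraries, and its range overlapped that of Mfge8 in both genotypes. Mfge8 was above Cd300lf in 5 of 5 KO libraries and in 3 of 5 CTR libraries. Mertk (30.5 ± 2.38 FPKM in KO, 25.3 ± 6.61 in CTR) and Gas6 (27.07 ± 4.64 FPKM in KO, 32.99 ± 6.50 in CTR) followed. Mertk was above Gas6 in 4 of 5 KO libraries and Gas6 above Mertk in 4 of 5 CTR libraries, with overlapping ranges both times. Pros1 (13.9 ± 1.25 FPKM in KO, 11.2 ± 0.890 in CTR) and Axl (10.8 ± 2.87 FPKM in KO, 6.64 ± 2.43 in CTR) overlapped in the KO libraries only, and the CTR range of Axl overlapped that of Elmo1. Elmo1 (4.66 ± 0.441 FPKM in KO, 4.85 ± 0.981 in CTR) was above Dock1 (3.53 ± 0.348 FPKM in KO, 3.26 ± 0.571 in CTR) in every library, and Tyro3 stood last at 0.0374 ± 0.0406 FPKM in KO libraries and 0.0219 ± 0.0156 FPKM in CTR libraries.

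After each genotype's mean log2 CPM was subtracted, Mertk followed Elmo1 with a Pearson r of 0.80 and Dock1 with 0.62, and ran opposite to Gas6 with -0.61, over 10 libraries that these genes share. CTR 4 and CTR 5 lay below the range of CTR 1 to 3 for Mertk (114 and 121 against 164 to 202 CPM), Elmo1 and Dock1. For Gas6 they lay above it (95.0 and 108 against 67.0 to 83.0 CPM). No r given here was computed without these 2 libraries, and their part in it was not tested. The 3 tested genes whose pattern was most like that of Mertk were Plxnb2, a semaphorin receptor (r = 0.986), Trp53inp1, a p53-induced stress protein (0.972), and Ston2, an endocytic adaptor (0.971). Plxnb2 had 450 to 506 CPM in KO libraries and 304 to 468 CPM in CTR libraries, with its lowest values in CTR 4 and CTR 5, as for Mertk. The likeness was measured within genotypes, and only Plxnb2 was also near Mertk in the difference between them. The edgeR log2 fold change was 0.26 for Plxnb2 (adjusted p = 0.240), near that of Mertk, but 0.50 for Trp53inp1 (0.0813) and 1.00 for Ston2, which passed (0.0333). Every KO library lay above every CTR library for Trp53inp1, at 30.4 to 33.8 CPM in KO libraries against 16.8 to 29.0 CPM in CTR libraries. Ston2 had 9.48 to 12.2 CPM in KO libraries against 2.91 to 7.04 CPM in CTR libraries, also with no overlap. These r values are descriptions over shared libraries and carry no p.

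The other genes of the clearance pathway, 107 from lists assembled by role, were read from the same fit. Of the 95 tested, 3 were higher and 3 lower in KO libraries, 6.32% against the background of 3.94% called. The 23 other receptors for phosphatidylserine and apoptotic cells had 20 tested members, of which Lrp1 and Itgam rose and Timd4 fell, with a median log2 fold change of 0.11. Itgam, the CD11b chain of complement receptor 3, had 534, 751, 721, 766 and 489 CPM in KO 1 to 5, against 256, 453, 433, 478 and 265 CPM in CTR 1 to 5. Every KO library lay above every CTR library (log2 fold change 0.79, SE 0.20, edgeR adjusted p = 0.0494). The call held without KO 5 or CTR 4, and without any other single library the adjusted p lay between 0.0535 and 0.130. It was 0.0587 with the length and GC correction, 0.0503 in the robust fit and 0.0877 without a filter on low counts. Itgam passed by DESeq2 (adjusted p = 0.0042), by voom (0.0123) and in edgeR without CTR 4 and CTR 5 (0.0495).

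Lrp1, a large endocytic receptor that pairs with calreticulin in corpse uptake, averaged 2137 ± 266 CPM in KO libraries and 1256 ± 332 CPM in CTR libraries (log2 fold change 0.77, edgeR adjusted p = 0.0376). Without KO 1, KO 2, KO 4, KO 5, CTR 1 or CTR 3 its adjusted p lay between 0.0636 and 0.0990, and it was 0.0653 without a filter on low counts. With the length and GC correction the log2 fold change was 0.48 (adjusted p = 0.119). Lrp1 passed by DESeq2 (adjusted p = 0.00162), by voom (0.00744) and in edgeR without CTR 4 and CTR 5 (log2 fold change 0.59, adjusted p = 0.0134). Timd4, the phosphatidylserine receptor of resident peritoneal macrophages, averaged 0.702 ± 0.279 CPM in KO libraries and 2.25 ± 1.02 CPM in CTR libraries (log2 fold change -1.67, edgeR adjusted p = 0.0338), low in both. Its adjusted p lay between 0.0535 and 0.0976 without any 1 KO library, CTR 3 or CTR 5, and was 0.0594 without CTR 4 and CTR 5 and 0.0583 without a filter on low counts. Timd4 passed by DESeq2 (adjusted p = 0.00176) and by voom (0.0247). Of the 12 resident peritoneal macrophage markers, 11 were tested and 4 fell in KO libraries (Timd4 itself, Selp, Alox15 and Serpinb2). The share called over all tested genes, in either direction, was 3.94%. Selp was low, with 8 to 34 counts in KO libraries, its groups overlapped, and its edgeR adjusted p was 0.0495. DESeq2 called 5 of the list (background 9.96%), voom 5 (14.5%), and edgeR without CTR 4 and CTR 5 called 3 (8.76%). The median log2 fold change of the 11 was -0.68, and 7 had an unadjusted p under 0.05 (21.9% of all tested genes). The summed level of the list, however, was 1195 to 1477 CPM in KO libraries and 933 to 1366 CPM in CTR libraries. Their part in the Timd4 value was not tested.

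Among 15 other bridging molecules and opsonins, 9 were tested, and Thbs1, which bridges corpses to CD36 and αv integrin, fell to 52.4 ± 25.8 CPM in KO libraries, against 269 ± 113 CPM in CTR libraries (log2 fold change -2.36, edgeR adjusted p = 0.00848). Thbs1 was the only 1 of the 9 called (background 3.94%), and the median of this list was -0.10. Mbl2 and Crp, opsonins made mainly by the liver, had 0 counts in every library.

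In the engulfment and Rac machinery, 20 of 21 genes were tested and 1, Elmo2, passed, beside 3.94% of all tested genes. Elmo2, the paralogue of Elmo1 that also binds DOCK proteins, had 150, 149, 117, 152 and 126 CPM in KO 1 to 5, against 110, 109, 104, 114 and 97.3 CPM in CTR 1 to 5. Every KO library lay above every CTR library, KO 3 by the smallest margin (log2 fold change 0.38, SE 0.09, edgeR adjusted p = 0.0456). The call held without KO 3, KO 5 or CTR 4, and without any other single library the adjusted p lay between 0.0655 and 0.128; with the length and GC correction the log2 fold change was 0.27 (adjusted p = 0.119), and without a filter on low counts the adjusted p was 0.0844. Elmo2 passed by DESeq2 (adjusted p = 0.00416), by voom (0.0127) and in edgeR without CTR 4 and CTR 5 (0.048). The list's median log2 fold change was 0.15, and its GTPase Rac1 stood at 0.01 (adjusted p = 0.934, named after its value was seen).

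S1pr1, a receptor for the find-me lipid sphingosine 1-phosphate, fell among 10 tested genes of find-me and keep-away signals (11 listed, median log2 fold change -0.03). It was the only 1 of them called, beside 3.94% of all tested genes. It had 17.73, 19.21, 19.25, 13.79 and 14.99 CPM in KO 1 to 5, against 25.59, 24.89, 27.09, 26.22 and 35.72 CPM in CTR 1 to 5. Every KO library lay below every CTR library, and CTR 5 was the highest (log2 fold change -0.71, SE 0.13, edgeR adjusted p = 0.0188). The adjusted p was 0.05001 to 0.05071, just above the threshold of 0.05, without KO 2, KO 4 or CTR 3.

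With all 10 libraries and the edgeR test, 0 genes passed in the other 3 lists, which are given here with genes among the 3 lowest p-values of each. Other settings called some of them. All 9 genes of TAM shedding and feedback were tested (median log2 fold change 0.00). The sheddases Adam10 and Adam17, which can release TAM ectodomains, gave 0.33 (adjusted p = 0.230) and -0.44 (0.249), and their inhibitor Timp3 gave -0.55 (0.459). Of these 9 genes, 0 had an unadjusted p under 0.05, and DESeq2, voom and the fit without CTR 4 and CTR 5 called 0. Over all tested genes, 21.9% had an unadjusted p under 0.05. The share called was 9.96% with DESeq2, 14.5% with voom and 8.76% without CTR 4 and CTR 5. All 9 genes of nuclear receptors and other factors linked to clearance gene expression were tested (median 0.18). The retinoid receptor Rxrb gave 0.27 (adjusted p = 0.160) and the lipid-sensing receptor Pparg -0.20 (0.190). An unadjusted p under 0.05 was reached by 3 of these 9 (background 21.9%). DESeq2 called 1 (background 9.96%), and voom called 4 (background 14.5%), among them Rxrb (adjusted p = 0.0212) and Pparg (0.0343). Of 19 genes for phagosome maturation and digestion 18 were tested (median -0.06). The late endosomal GTPase Rab7 gave -0.38 (adjusted p = 0.0604), and the autophagy conjugation proteins Atg5 and Atg7 gave -0.21 (0.156) and -0.24 (0.162). An unadjusted p under 0.05 was reached by 4 of these 18, beside 21.9% of all tested genes. Rab7 passed by DESeq2 (adjusted p = 0.0124), by voom (0.0137), with the length and GC correction (0.0466) and in edgeR without KO 5 (0.0235). Atg7 passed under the length and GC correction (0.0402) and by voom (0.0368), and Atg5 by voom (0.0209) and in edgeR without CTR 4 and CTR 5 (0.0289).

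**Figure D4:**
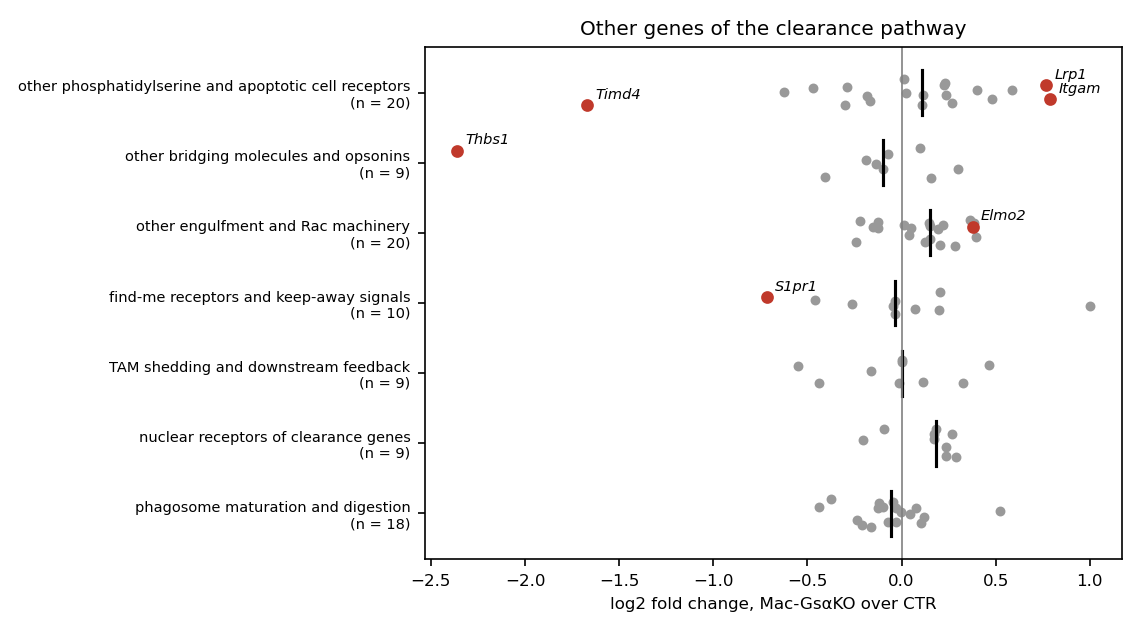
Log2 fold change, Mac-GsαKO over CTR (horizontal axis), of the 95 tested genes of the other clearance pathway lists (rows, with the number tested). Grey points did not pass, red points passed at an edgeR adjusted p under 0.05 and are named, and black bars are the medians of the lists. The 6 named genes are Lrp1, Itgam and Elmo2 to the right of 0 and Timd4, Thbs1 and S1pr1 to the left.

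Of the 8 core macrophage markers, all were tested, Csf1r rose (log2 fold change 0.46, edgeR adjusted p = 0.0235) and Lyz2, lysozyme, fell (-1.52). The share called over all tested genes was 3.94%. Lyz2 alone averaged 9240 ± 517 CPM in KO libraries and 26530 ± 3802 CPM in CTR libraries, while the median log2 fold change of the 8 markers was 0.14. The sum of the 8, of which Lyz2 was the larger part, was 14410 to 15740 CPM in KO libraries and 29870 to 38280 CPM in CTR libraries. Summed markers of other cells were low beside this sum, in both genotypes. The fibroblast markers summed to 49.9 to 67.4 CPM in KO libraries and 30.5 to 139 CPM in CTR libraries. In CTR 5 their sum of 139 CPM exceeded the 121 CPM of Mertk, itself a core macrophage marker. The mesothelial markers summed to 16.9 to 24.6 CPM in KO libraries and 8.76 to 44.0 CPM in CTR libraries, and B cell markers to 4.29 to 8.69 CPM in KO libraries and 1.68 to 5.53 CPM in CTR libraries. The sums were 2.25 to 6.36 CPM in KO libraries and 1.76 to 5.53 CPM in CTR libraries for dendritic cells. They were 0.788 to 1.87 CPM in KO libraries and 0.282 to 2.04 CPM in CTR libraries for T and NK cells. Neutrophil markers summed to 12.4 to 25.3 CPM in KO libraries and 18.9 to 27.4 CPM in CTR libraries, with Ly6g, their defining surface marker, at 0 counts in every library. Mast cell and eosinophil markers summed to 11.4 to 26.4 CPM in KO libraries and 7.64 to 34.9 CPM in CTR libraries. Small peritoneal and monocyte-derived macrophage markers summed to 340 to 442 CPM in KO libraries and 398 to 546 CPM in CTR libraries, and 0 of the 8 tested passed. Their median log2 fold change was 0.24, and 4 of the 8 had an unadjusted p under 0.05 (background 21.9%). DESeq2 called 2 (background 9.96%), voom 3 (14.5%), and edgeR without CTR 4 and CTR 5 called 2 (8.76%). Of these lists and the fibroblast list, only the neutrophil list had a gene past the edgeR threshold with all 10 libraries. It was S100a8, 1 of the 2 tested in that list (background 3.94%), which was lower in KO libraries.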

How the data were processed

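The deposited table gave whole-number counts per Ensembl gene and the authors' FPKM for each of the 10 libraries. Per the submitters' processing notes, CASAVA 1.8, HISAT2, SAMtools 1.3.1 and edgeR were used with the build GRCm39. These sources do not give the read counter, annotation or strand setting. The deposited FPKM equal the counts per gene length and library total (largest relative deviation 2.45e-05 at 50 or more counts). They served to compare levels between genes and to recover the gene lengths.

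From the counts, genotypes were compared with edgeR 4.0.16 in R 4.3.3 (filterByExpr, TMM, quasi-likelihood test, two-sided, genotype as the only term). The 13203 genes kept held 99.9% of the counts. Adjusted p-values are by the Benjamini-Hochberg method across every tested gene, and a gene passed under 0.05. CPM use TMM-scaled library sizes, and SE refer to log2 fold changes. Ratios of partner genes were compared by exact permutation tests. Other settings used DESeq2 1.42.0, limma 3.58.1 (voom) and mgcv 1.9.3 (correction for gene length and GC content). The fits were tested on simulated data. Of 53465 genes, 53274 were matched to a symbol by identifier. GC content and gene overlaps came from GENCODE M21 on GRCm38. Of the 9 genes, Gas6 and Elmo1 overlap an opposite-strand gene, and those genes had at most 1 count summed over all libraries. Limits set by 3 counts and counting errors cover counting error only. No value column was left unmapped.

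The genes, lists, tests and settings were chosen with earlier results of these data known. Besides the 9 genes, the rule named every pathway gene with an adjusted p under 0.05, otherwise the 3 with the lowest p of a list, and the 3 genes most like Mertk in their pattern over the libraries. A result that this rule takes is not reported here. Some genes, such as Timd4 and Mertk, stand in more than 1 list.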

Additional observations from a re-analysis of the deposited data

Results flagged for a closer look

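Single libraries stood apart from the other 4 of their genotype in 6 of the 54 groups of 5 libraries examined, where the gap to the nearest library exceeded 0.71 of the group's range; chance gives about 1 in 20. Among the clearance genes this was Tyro3, at 0.992 CPM in KO 3. Among the other genes named, Adam10 was low in KO 4 at 128 CPM and high in CTR 1 at 196 CPM. Atg5 was high in KO 4 at 69.3 CPM. Adam17 was low in CTR 5 at 176 CPM, and S1pr1 was high in CTR 5 at 35.7 CPM.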

How the results depend on the processing

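Over 20 other settings, the 8 tested clearance genes gave 160 values, of which 152 kept their direction and side of the threshold, 5 passed it and 3 turned their sign. The number of clearance genes called was 2 with DESeq2, 1 with voom, 1 with the length and GC correction, and 0 to 1 when 1 library was left out. The signs that turned were those of Dock1, at -0.0268 with voom and -0.0643 without CTR 4 and CTR 5, and of Cd300lf, at -0.0763 (without KO 4) to 0.16 (without KO 5) when 1 library was left out. The count over all genes was 261 without a filter, 1289 with DESeq2, 1919 with voom, 1185 without CTR 4 and CTR 5, and 62 to 868 when 1 library was left out. The Gas6 to Pros1 difference was -0.39 without CTR 4 and CTR 5 and -0.68 to -0.48 when 1 library was left out. That of Elmo1 to Dock1 was -0.20 and -0.25 to -0.12, in the same order. That of Mertk to Axl was -0.53 without CTR 4 and CTR 5, and -0.64 (without CTR 5) to -0.31 (without KO 1) when 1 library was left out. Its adjusted exact permutation p was 0.0714 without CTR 5 and 0.286 without KO 1. The causes were not tested.

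The labels do not say whether replicate numbers pair the libraries. Across genes, the residuals of same-numbered libraries correlated at -0.126 to 0.0582, which cannot exclude a pairing that affects few genes. With the replicate number as a block, 104 genes and 0 clearance genes were called, and the Gas6 to Pros1 difference of -0.60 had an exact p of 0.0625, the smallest that 5 pairs allow (0.188 adjusted). Of the 6 pathway calls, the block ended those of Timd4 (adjusted p = 0.0718), Lrp1 (0.0898), Elmo2 (0.0840) and S1pr1 (0.0644).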
